A study of Mus musculus with 4 samples.

Results

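A set of 8 genes of hepatic sugar sensing, Rgs16, Mlxipl, Pklr, Txnip, Arrdc4, Gckr, Khk and Slc2a2, were followed among the 37315 genes counted by RNA sequencing of mouse liver. They were taken from a list that joins Mlxipl, its known sugar-induced targets, and the genes of hepatic sugar uptake and phosphorylation. All 8 members were found by symbol, and all 8 had counts high enough to be tested among 14657 genes. Liver tissue came from C57BL/6 mice aged 23 weeks and formed 2 groups of 2 libraries, wild type and a mutant whose Foxo1 carries a synonymous change. Such a mutation alters a codon but not the amino acid it encodes. The position of the mutation, the zygosity, the hour of sampling and the feeding state were not used here because the labels leave them unstated. Nothing states that each library is a different animal, so p-values measure only the spread between the samples at hand, and that spread may be technical.

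Sugar sensing in the liver rests on a pair of basic helix-loop-helix factors. Mlxipl encodes ChREBP, the carbohydrate response element binding protein, which pairs with Mlx and binds E-boxes near genes of glycolysis and fatty acid synthesis when sugar phosphates accumulate in the hepatocyte. Sugars enter through the low-affinity transporter GLUT2, encoded by Slc2a2. Khk encodes ketohexokinase, which phosphorylates fructose, and Gckr encodes a regulatory protein of hepatic glucose phosphorylation that responds to fructose 1-phosphate. Pklr encodes the liver pyruvate kinase of the last glycolytic step and is a textbook ChREBP target. Txnip and Arrdc4 encode related alpha-arrestins that are induced by glucose and limit its uptake. Rgs16, a regulator of G protein signalling that speeds GTP hydrolysis by Gi and Gq subunits, is also induced by glucose in hepatocytes.

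The sequence upstream of the start site is shown for 5 members, because ChREBP is known to act through E-boxes spaced 5 bases apart close to such start sites. The letters are from RefSeq (GRCm38.p6, the assembly of mm10), 5′ to 3′ on the strand of the gene. Capitals mark the E-box CACGTG and its variant CACGNG on either strand, and the forkhead core GTAAACA on either strand. Every E-box is also a match to the variant. The stretches are chr1:153740103-153740342 (plus strand) for Rgs16, chr5:135089640-135089879 (plus) for the upstream start of Mlxipl, chr3:89136373-89136571 (plus) for the downstream start of Pklr, chr3:96557707-96557946 (plus) for Txnip, and chr7:68749249-68749488 (minus) for Arrdc4.
Rgs16: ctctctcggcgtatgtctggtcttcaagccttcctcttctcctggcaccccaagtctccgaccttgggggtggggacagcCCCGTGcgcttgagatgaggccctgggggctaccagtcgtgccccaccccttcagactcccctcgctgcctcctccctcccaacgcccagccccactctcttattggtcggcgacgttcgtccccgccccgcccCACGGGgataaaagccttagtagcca
Mlxipl: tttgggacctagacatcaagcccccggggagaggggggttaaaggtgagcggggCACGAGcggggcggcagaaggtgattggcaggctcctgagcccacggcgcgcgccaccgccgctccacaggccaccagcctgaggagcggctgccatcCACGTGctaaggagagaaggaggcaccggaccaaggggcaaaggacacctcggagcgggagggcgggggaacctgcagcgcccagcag
Pklr: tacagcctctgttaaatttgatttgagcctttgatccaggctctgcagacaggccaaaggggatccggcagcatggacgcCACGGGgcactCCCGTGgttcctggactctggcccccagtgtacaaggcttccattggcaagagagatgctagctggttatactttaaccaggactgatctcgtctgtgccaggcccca
Txnip: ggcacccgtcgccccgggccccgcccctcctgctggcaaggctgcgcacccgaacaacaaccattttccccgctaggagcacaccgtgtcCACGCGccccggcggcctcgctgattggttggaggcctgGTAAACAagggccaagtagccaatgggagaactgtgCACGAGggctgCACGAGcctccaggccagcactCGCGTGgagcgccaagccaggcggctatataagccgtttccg
Arrdc4: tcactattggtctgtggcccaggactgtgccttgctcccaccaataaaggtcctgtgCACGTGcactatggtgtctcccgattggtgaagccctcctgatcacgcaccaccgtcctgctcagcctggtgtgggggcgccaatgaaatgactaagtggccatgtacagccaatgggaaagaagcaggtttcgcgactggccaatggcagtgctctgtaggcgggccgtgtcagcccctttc

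All 8 members matched the RefSeq promoter table, with 10 windows of 250 bases before and 50 bases after a start site, since Mlxipl and Pklr have a pair of start sites each. An E-box was present in the windows of 3 genes, Mlxipl (98 to 93 bases before the start), Arrdc4 (193 to 188 bases before) and Khk (71 to 66 bases before), and in 7.15% of all 32851 windows. GENCODE M21 starts Khk further upstream and places its E-box (chr5:30921488-30921493) inside an exon. The variant CACGNG was present for 6 genes and in 27.5% of all windows. Variants spaced 5 bases apart, on either strand each, were found for 2 genes and in 0.0822% of all windows (27 windows). In Pklr they lay 170 to 154 bases before the downstream start, and this stretch also matched the carbohydrate response element consensus, which 0.119% of windows hold. In Txnip they lay 85 to 69 bases before the start, and a forkhead core, held by 3.65% of windows, lay 121 to 115 bases before it. The windows of Gckr and Slc2a2 held none of these letters. The members were listed partly as known ChREBP targets, so these matches are a description.

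**Figure D1:**
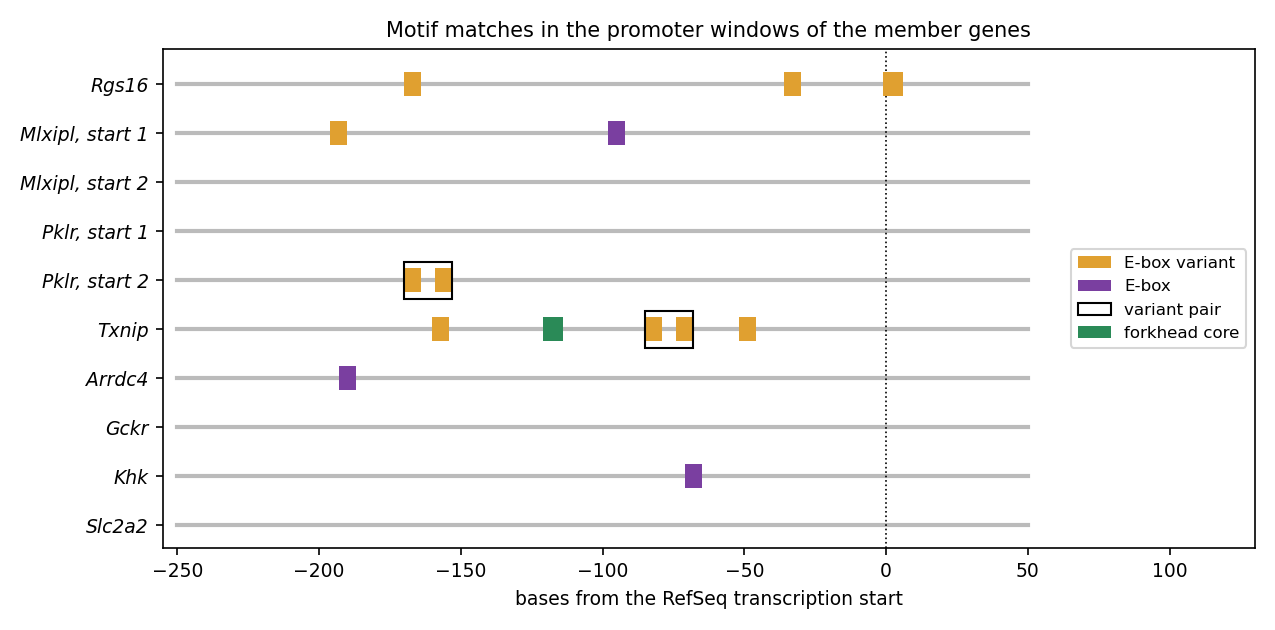
Positions of motif matches in the promoter windows of the member genes, in bases from the RefSeq transcription start (horizontal axis), with 1 line per start site. Purple bars are E-boxes, orange bars the variant CACGNG, the green bar the forkhead core, and open boxes a pair of variants 5 bases apart, which occur at the downstream start of Pklr and at Txnip.

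The members lie on 4 chromosomes of mm10. Khk (chr5:30921431-30931248) and Gckr (chr5:31297443-31327314) lie 366194 bp apart, and Mlxipl (chr5:135089890-135138382) lies far from them on the same chromosome. Slc2a2 (chr3:28697903-28731359), Pklr (chr3:89136142-89146784) and Txnip (chr3:96557957-96561883) are on chromosome 3, which also carries Foxo1. Rgs16 is at chr1:153740349-153745468 and Arrdc4 at chr7:68736995-68749241. Exons of 4 members overlap a gene on the opposite strand, and the TruSeq v2 kit named in the labels keeps no strand, so reads of the pair cannot be told apart. These partners are Gm28513 for Rgs16, Gm43500 for Mlxipl, Hcn3 for Pklr and Gm15441 for Txnip. Gm28513 and Gm43500 were not among the counted genes, so their levels are not known here. Hcn3, a channel gene, was counted at 2.74 to 3.81 CPM in the 4 libraries, and Gm15441 at 0 to 2 reads.

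Total counts were 73551737 to 95908652 per library, and values below are normalised CPM (reads of a gene scaled to the library total and by TMM), with log2 fold changes of mutant over wild type and n = 2 libraries in each group. The limit that a count of 0 allows (3 counts) was 0.0315 to 0.0415 CPM and covers counting error only. Foxo1 was at 43.99 and 54.8 CPM in wild type and at 33.6 and 53.4 CPM in mutant liver, so the groups overlapped and the value does not check the labels of a synonymous mutation. Of the 14657 genes, 50 passed an edgeR adjusted p below 0.05, or 0.341%, and 0.0614% passed with a lower level in mutant liver. An unadjusted p below 0.05 was reached by 6.19% of genes, 2.22% lower and 3.97% higher in mutant liver. Groups that did not overlap were found for 34.1% of genes. Hepatocyte markers were abundant in the 4 libraries, with albumin at 64783 to 80698 CPM. Markers of Kupffer cells and other macrophages were higher in mutant liver, where 7 of 12 passed the threshold, and their summed level was 330.1 and 349.7 CPM in wild type against 505 and 577 CPM in mutant libraries. In such whole tissue, a different number of cells of a type and a different amount of RNA per cell cannot be told apart.

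Per kilobase of exon the 8 members spanned a wide range of levels. Khk was highest, at a mean of 128 CPM per kb over the 4 libraries, followed by Mlxipl at 67.1, Gckr at 42.2, Slc2a2 at 29.8, Pklr at 29.8, Txnip at 8.01, Arrdc4 at 3.06 and Rgs16 at 1.79 CPM per kb. Of the 7 neighbouring pairs in this order, 5 kept it in 4 of 4 libraries with no overlap of their ranges. Slc2a2 and Pklr overlapped, with Slc2a2 above Pklr in 2 of 4 libraries. Arrdc4 (2.95 to 3.17 CPM per kb) and Rgs16 overlapped too, because Rgs16 reached 3.26 CPM per kb in wild type replicate 2 and was below Arrdc4 in the other 3 libraries.

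Mutant and wild type liver were compared to see how the 8 genes differed with the Foxo1 mutation. Rgs16 was lower in mutant liver by 5.72-fold, and the other 7 members had smaller differences with negative log2 fold changes. In the fit over all genes 1 of the 8 members passed the threshold, against 0.341% of all genes, and in 5 of 8 the mutant libraries lay below the wild type libraries, against 17% of all genes. The median log2 fold change of the 8 was −0.18, beside 0.00 over all tested genes, and 50.3% of all genes had a negative value. The median of the 8 was −0.12 without mutant replicate 1. The list was proposed with this contrast in view and Rgs16 was picked from it, so these values describe the members and support nothing further.

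Rgs16 was counted with 549 and 551 reads in the wild type libraries and with 88 and 131 reads in the mutant libraries. These reads correspond to 6.62 and 7.63 CPM in the former and 0.924 and 1.57 CPM in the latter, or 7.12 ± 0.711 against 1.25 ± 0.454 CPM (SD, n = 2). Both mutant libraries lay far below both wild type libraries, and on the log2 scale the mutant libraries differed from each other by more than the wild type libraries did. The log2 fold change was −2.52 (SE 0.24, 95% confidence interval −3.06 to −1.99, edgeR adjusted p = 0.00221), the 14th most negative of the 14657 genes tested. Without mutant replicate 1, the library with the fewest Rgs16 reads, the log2 fold change was −2.18 and the gene did not pass (edgeR adjusted p = 0.0560). With any other library left out it passed, at −2.95 to −2.42. The share of all genes that passed was 0.0205% and 0.102% with mutant replicate 1 or 2 left out, and 0.0887% and 0.116% with wild type replicate 1 or 2 left out. Rgs16 also passed in DESeq2 (0.811% of genes passed), in limma-voom (0.0478%), with no robust estimation (0.0546%) and with no filter on low counts (1.12%).

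Mlxipl, the gene for ChREBP itself, was at 388 and 405 CPM in wild type and at 298 and 395 CPM in mutant liver. Mutant replicate 1 stood below the other 3 libraries, which lay within 388 to 405 CPM, so the groups overlapped. Its log2 fold change was −0.19 (SE 0.13), and −0.0034 without mutant replicate 1 against −0.41 without mutant replicate 2. Foxo1 was also lowest in mutant replicate 1. Gene-level counts do not separate the alpha and beta transcripts of Mlxipl.

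Pklr, the glycolytic target, was at 108 and 116 CPM in wild type and at 82.5 and 78.8 CPM in mutant liver. The groups were apart by more than the spread within either, at 112 ± 5.35 and 80.6 ± 2.59 CPM. The log2 fold change was −0.47 (SE 0.09) and the edgeR adjusted p of 0.0577 missed the threshold. DESeq2, where 0.811% of genes passed, called it (adjusted p = 0.00243). So did edgeR with no filter on low counts (adjusted p = 0.000921), where 1.12% of genes passed. With the replicate number as a block, where 0.757% passed, edgeR called it too (adjusted p = 0.0253). Pklr did not pass in limma-voom (adjusted p = 0.138) or in edgeR with no robust estimation (adjusted p = 0.164). Nor did it pass in edgeR with a filter at 1 CPM (adjusted p = 0.0768), RLE scaling (0.0567) or upper-quartile scaling (0.0788). With each library left out in turn the log2 fold change stayed between −0.52 and −0.42, and its edgeR adjusted p was 0.289 to 0.547.

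Txnip was at 28.04 and 25.6 CPM in wild type and at 22.5 and 23.9 CPM in mutant liver, with groups that did not overlap but lay close. Its log2 fold change was −0.21 (SE 0.10, 95% confidence interval −0.43 to 0.01). Arrdc4, its relative, was at 12.8 and 12.6 CPM in wild type and at 12.1 and 11.9 CPM in mutant liver. The 4 Arrdc4 values lay close together and the log2 fold change was −0.08 (SE 0.11, 95% confidence interval −0.32 to 0.17). Neither alpha-arrestin passed the threshold.

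Among the genes of sugar entry, Khk was at 234 and 248 CPM in wild type and at 215 and 219 CPM in mutant liver. The groups did not overlap, and the log2 fold change was −0.15 (SE 0.10). Slc2a2 was at 165 and 199 CPM in wild type and at 153 and 169.6 CPM in mutant liver. Wild type replicate 2 stood highest and the groups overlapped, with a log2 fold change of −0.18 (SE 0.11) that was −0.04 without wild type replicate 2. Gckr was at 178 and 198 CPM in wild type and at 177 and 179.6 CPM in mutant liver. Here 3 of the 4 libraries were nearly level, and the log2 fold change of −0.07 (SE 0.10) was 0.0069 without wild type replicate 2. The 95% confidence intervals of these 3 genes reached from −0.42 at the lowest to 0.14 at the highest. The edgeR adjusted p was 0.966 for Khk, 0.966 for Slc2a2 and 0.9999 for Gckr, so 0 of the 3 passed.

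**Figure D2:**
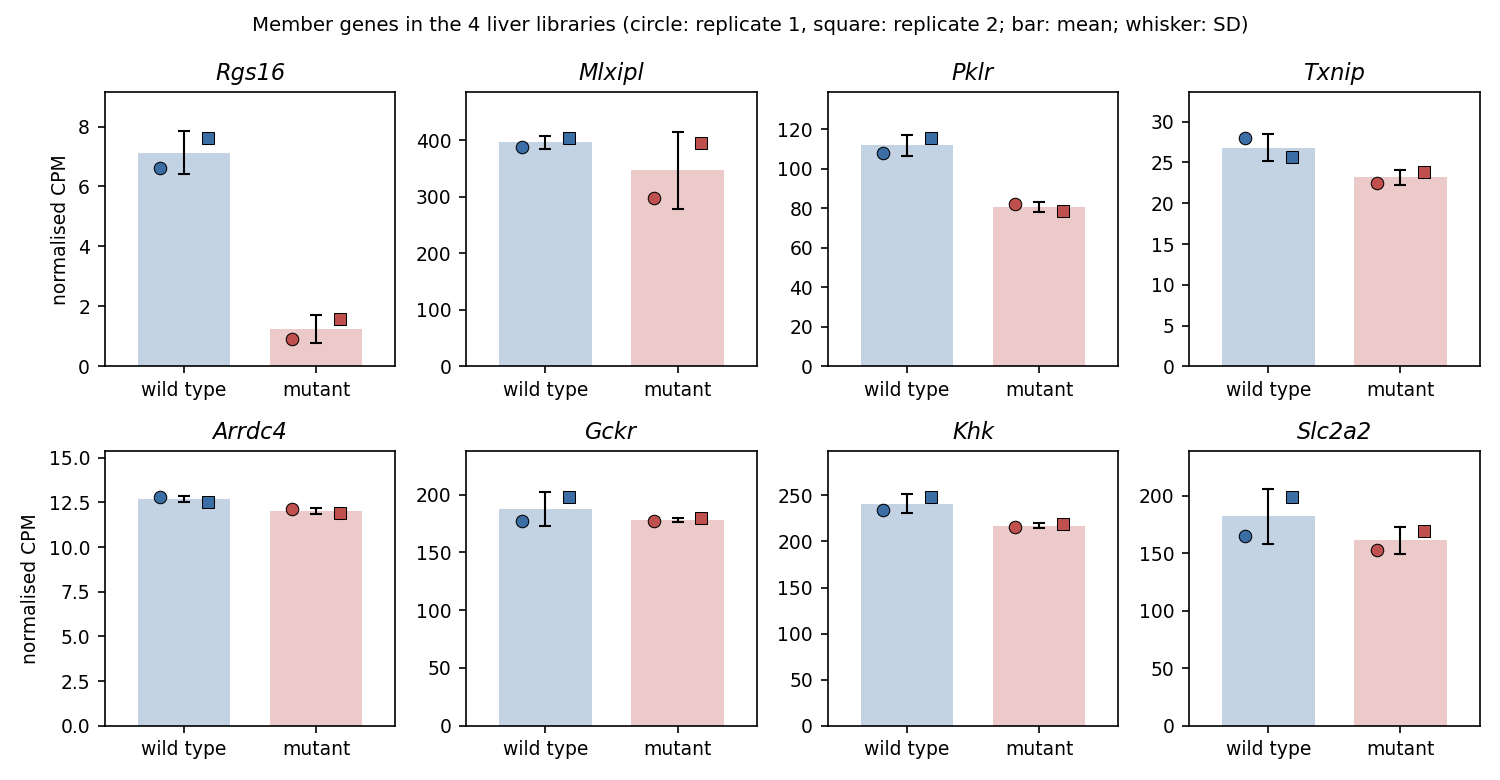
Normalised CPM (vertical axis, from 0) of the 8 member genes in wild type and mutant liver. Circles are replicate 1, squares replicate 2, bars group means and whiskers SD (n = 2). Rgs16 stands at 6.62 and 7.63 CPM in wild type and at 0.924 and 1.57 CPM in mutant libraries, and in Mlxipl mutant replicate 1 (298 CPM) lies below the other 3.

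**Figure D3:**
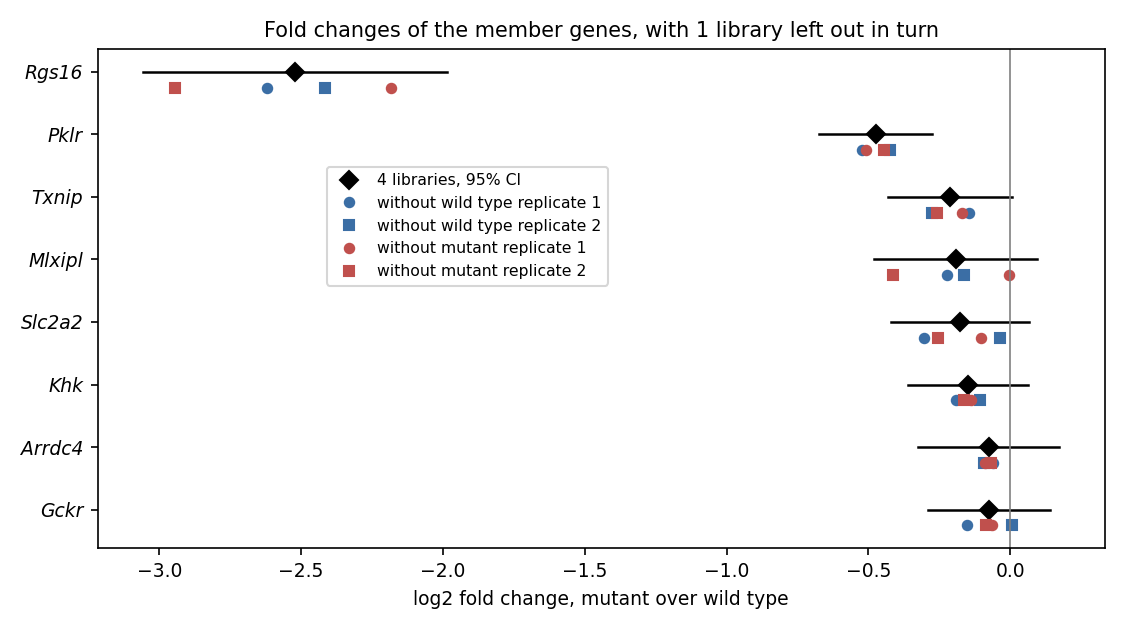
Log2 fold change of mutant over wild type (horizontal axis) for each member. Diamonds and lines are the value and 95% confidence interval from the 4 libraries, and the small symbols below are the values with the named library left out. Rgs16 stays between −2.95 and −2.18, and the other members lie between −0.52 and 0.0069.

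The spread between libraries of the same group differed among the members. Between the mutant libraries Rgs16 differed by 0.76 and Mlxipl by 0.41 on the log2 scale, above the median of 0.17 over all tested genes. The other 6 differed by 0.02 to 0.15 there. Between the wild type libraries the differences were 0.03 (Arrdc4) to 0.27 (Slc2a2), around a median of 0.16 over all genes, and 6 of the 8 members were higher in wild type replicate 2.

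The other genes of sugar sensing and G protein signalling were taken from 12 lists with 188 genes outside the members, of which 171 were tested. Of these 171, 0 rose and 1 fell, Nr1d1, against 0.28% and 0.0614% of all genes. At an unadjusted p below 0.05, 10 were higher and 9 lower, against 3.97% and 2.22% of all genes. The groups did not overlap in 33 that were lower and 33 that were higher in mutant liver, near the 17% of all genes in each direction. The median log2 fold change was −0.03.

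Of 15 genes around the ChREBP complex, 0 passed the threshold in edgeR, DESeq2 and limma-voom and 0 had an unadjusted p below 0.05. Mlx, the partner of ChREBP, was at 24.5 and 25.8 CPM in wild type and at 25.5 and 26.6 CPM in mutant liver. Mlxip, which encodes the related sensor MondoA, was at 10.9 and 11.2 against 9.87 and 12.1 CPM. Both pairs of groups overlapped. Ogt, the O-GlcNAc transferase that modifies ChREBP, had a log2 fold change of −0.02 (SE 0.09), and Ppp2ca, a catalytic subunit of protein phosphatase 2A, −0.0023 (SE 0.09). The Max network repressor Mnt averaged 8.17 ± 0.303 CPM in wild type against 9.83 ± 1.37 CPM in mutant libraries, and Max at 14.2 ± 0.172 and 12.7 ± 1.06 CPM.

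Of 21 tested ChREBP targets outside the members, 18 were negative and 3 positive on the log2 scale (median −0.24), and 0 passed the threshold in edgeR. At an unadjusted p below 0.05, 5 were lower and 0 higher, against 2.22% and 3.97% of all genes. The groups did not overlap in 9 that were lower and 0 that were higher, against 17% of all genes in each direction. The stearoyl-CoA desaturase Scd1 was at 4012 and 6733 CPM in wild type and at 2551 and 2309 CPM in mutant liver. Its wild type libraries lay far apart and both above the mutant libraries, and the difference was −1.14 on the log2 scale (SE 0.29; edgeR adjusted p = 0.589). Malic enzyme, Me1, was at 193 and 210.0 CPM against 148 and 143 CPM, with tight groups, a difference of −0.47 in log2 units (SE 0.10) and an edgeR adjusted p of 0.0851, the size seen for Pklr. DESeq2, where 0.811% of genes passed, called Me1 (adjusted p = 0.00177). So did edgeR with no filter on low counts (adjusted p = 0.00148), where 1.12% of genes passed. With the replicate number as a block, where 0.757% passed, edgeR called Me1 too (adjusted p = 0.0383). Me1 did not pass in limma-voom (adjusted p = 0.148) or in edgeR with no robust estimation (adjusted p = 0.204). Nor did it pass in edgeR with a filter at 1 CPM (adjusted p = 0.107). Exons of Me1 overlap A330041J22Rik, and those of Elovl6 overlap Gm35986, on the opposite strand. Elovl6, a fatty acid elongase, was at 52.8 ± 3.17 and 40.4 ± 0.835 CPM (log2 fold change −0.38), and G6pc, the phosphatase that releases free glucose, at 567 ± 13.5 and 449 ± 97.1 CPM.

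The values of these targets depended on which wild type library was used. Of the 21, 20 were higher in wild type replicate 2 than in replicate 1, with a median difference of 0.44 on the log2 scale. Without wild type replicate 2 the median log2 fold change of mutant over wild type was −0.03, with 11 negative and 10 positive. Without wild type replicate 1 it was −0.41, and Scd1 then passed (log2 fold change −1.47, edgeR adjusted p = 0.000597). Scd1 was at −0.72 without wild type replicate 2 and did not pass (edgeR adjusted p = 0.0788). Without mutant replicate 1 or 2 the median of the 21 targets was −0.23 or −0.17. Without wild type replicate 2, Rgs16 was at −2.42 and Pklr at −0.42.

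**Figure D4:**
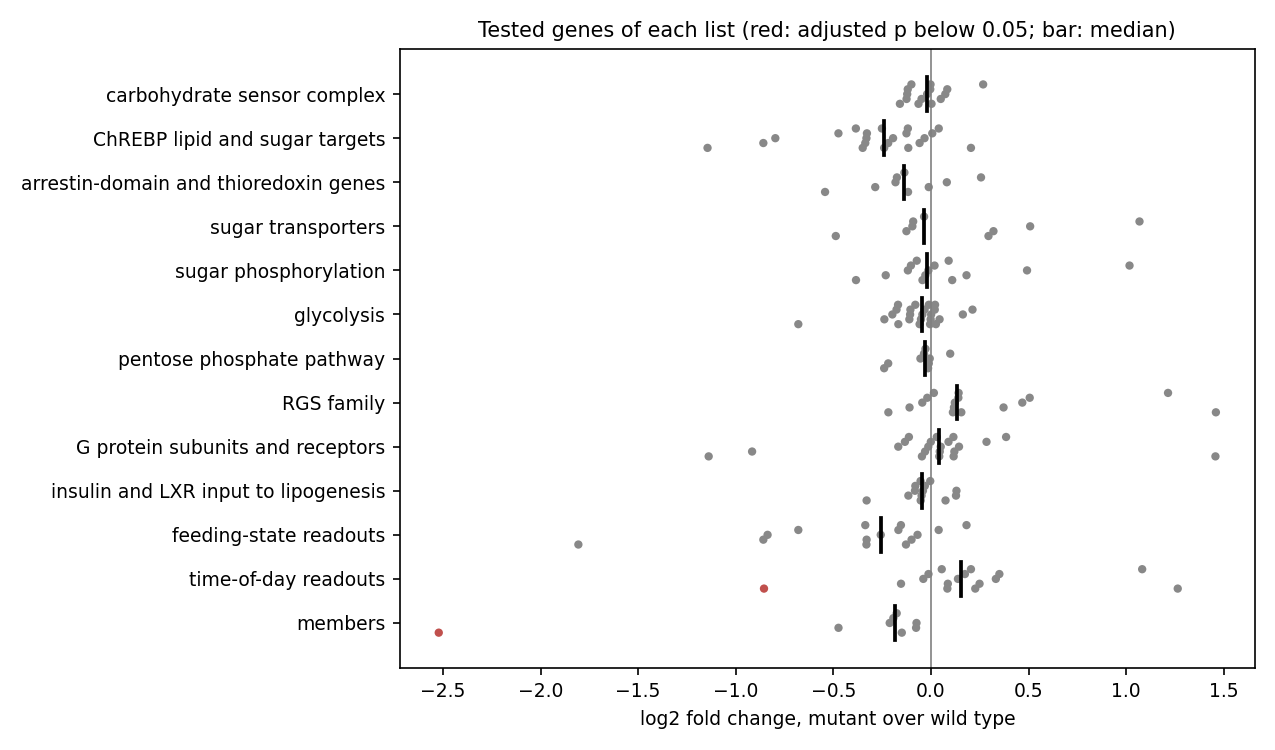
Log2 fold change of mutant over wild type (horizontal axis) for each tested gene of the 12 lists, members left out, and of the members in the bottom row. Red points passed an adjusted p below 0.05 and black bars are medians. The ChREBP targets have a median of −0.24, and Rgs16 in the bottom row and Nr1d1 among the time-of-day genes are the red points.

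Glycolytic enzymes outside the members, 24 in all, had 0 past the threshold in edgeR and a median of −0.05 (−0.0082 without wild type replicate 2). Among them 1 was lower at an unadjusted p below 0.05, against 2.22% of all genes. That gene was Pdk1, a pyruvate dehydrogenase kinase, at 76.7 ± 4.90 against 65.0 ± 4.63 CPM, a difference of −0.24 (SE 0.09). Pdk2 was at 121 and 105.7 CPM. Fbp1, a gluconeogenic bisphosphatase listed with them, was at 731 ± 26.6 and 753 ± 2.82 CPM, and Gapdh at 447 ± 28.5 and 431 ± 28.6 CPM. In the pentose phosphate pathway 0 of 9 passed in edgeR. Here 1 was lower at an unadjusted p below 0.05, against 2.22% of all genes. This was transketolase (Tkt), at 111 ± 8.701 and 93.8 ± 1.31 CPM, while H6pd was at 411 ± 20.3 and 408 ± 65.5 CPM.

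Of 14 tested genes of sugar phosphorylation and entry besides Gckr and Khk, 0 passed in edgeR. At an unadjusted p below 0.05, 2 were higher and 2 lower, against 3.97% and 2.22% of all genes. Tkfc, the triokinase that acts after Khk in fructose breakdown, was at 233 and 247 against 217 and 226 CPM, and sorbitol dehydrogenase, Sord, had a log2 fold change of −0.03. Hexokinase 2, Hk2, was at 0.506 and 0.789 against 1.33 and 1.28 CPM, 1.02 higher on the log2 scale (SE 0.34) with an edgeR adjusted p of 0.5000. Of 9 tested sugar transporters besides Slc2a2, 0 passed in edgeR and 0 had an unadjusted p below 0.05. The fructose transporter Slc2a5 averaged 3.99 CPM in wild type against 4.89 CPM in mutant libraries, and the glucose 6-phosphate transporter Slc37a4 at 109 and 100.0 CPM.

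Around Txnip and Arrdc4, 9 arrestin and thioredoxin genes had a median log2 fold change of −0.14, and 0 passed in edgeR. The alpha-arrestin Arrdc3 was at 48.1 and 36.1 CPM in wild type and at 33.5 and 24.3 CPM in mutant liver, so its groups did not overlap but lay close, at −0.54 on the log2 scale (SE 0.22) with an edgeR adjusted p of 0.866. Leaving out wild type replicate 1 gave −0.32, and leaving out mutant replicate 2 gave −0.33. The beta-arrestin Arrb2 was at 16.2 and 19.4 CPM. Thioredoxin 2, Txn2, had a log2 fold change of −0.14, and the reductase Txnrd1 0.08. The median of the 9 was −0.02 without wild type replicate 2.

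Rgs16 was then set beside the other genes with an RGS domain, the fold that binds activated G alpha subunits. Of 16 others that were tested, 0 passed in edgeR, 12 were above and 4 below 0 on the log2 scale, with a median of 0.13 that was 0.23 without mutant replicate 1. Per kilobase of exon, Rgs16 ranked 5th and 4th of the 17 in the wild type libraries and 10th and 9th in the mutant libraries. Rgs5, a family member of pericytes, was at 27.7 and 26.9 CPM in wild type and at 33.2 and 27.5 CPM in mutant liver. Grk2, a receptor kinase with an RGS domain, and Axin1, a scaffold of the Wnt pathway, had log2 fold changes of 0.01 and 0.12. Rgs2, which acts on Gq, averaged 2.29 CPM in wild type against 3.16 CPM in mutant libraries (0.47 on the log2 scale, SE 0.21), and Rgs19, which acts on Gi, at 1.11 and 1.58 CPM (0.51, SE 0.30). Their edgeR adjusted p were 0.799 and 0.946, and Rgs19 was at 0.31 with wild type replicate 1 left out and at 0.30 with mutant replicate 2 left out.

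**Figure D5:**
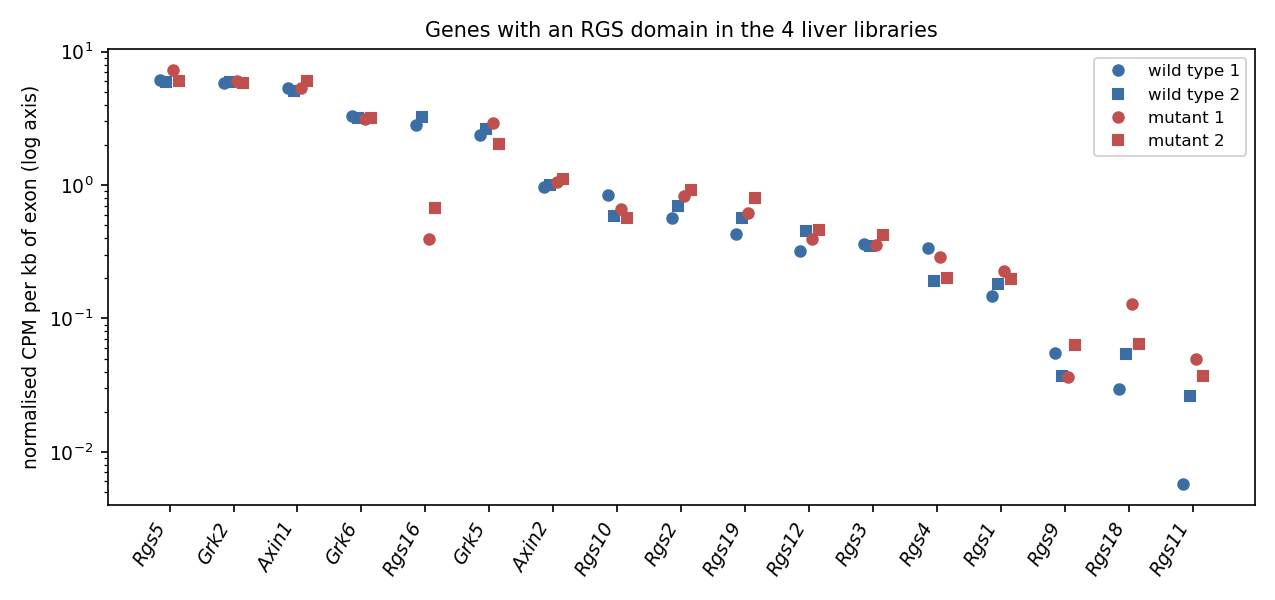
Normalised CPM per kb of exon (vertical log axis) of the 17 tested genes with an RGS domain, ordered by their wild type mean. Blue symbols are wild type and red symbols mutant libraries, circles replicate 1 and squares replicate 2. In Rgs16 the red symbols (0.395 and 0.670 CPM per kb) lie below the blue ones (2.83 and 3.26 CPM per kb).

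Of 21 tested G protein subunits and receptors, 0 passed in edgeR. At an unadjusted p below 0.05, 3 were higher and 0 lower, against 3.97% and 2.22% of all genes. The inhibitory subunit Gnai3 had a log2 fold change of 0.05 (SE 0.09) and Gna12 one of 0.12. The glucagon receptor Gcgr was at 184 and 179 CPM in wild type and at 163 and 168 CPM in mutant liver. The adenosine receptor Adora1, which couples to Gi, was at 17.5 and 17.7 against 19.6 and 26.3 CPM (0.38, SE 0.13, edgeR adjusted p = 0.562). Its log2 fold change was 0.58 without mutant replicate 1 and 0.16 without mutant replicate 2.

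Insulin and LXR signalling also feed into lipogenic genes. Of 13 tested factors of these pathways, 0 passed in edgeR, DESeq2 and limma-voom and 0 had an unadjusted p below 0.05. Hnf4a, a hepatocyte nuclear receptor, had a log2 fold change of 0.13, Insig1 0.13, Rxra −0.04 and Scap −0.12.

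Rgs16 and several ChREBP targets are known to change with meals and with the time of day, so readouts of both were set beside them. Of 15 tested genes that differ between fed and fasted liver, 13 had a negative log2 fold change, the median was −0.26 and 0 passed in edgeR. The median was −0.13 (10 negative and 5 positive) without mutant replicate 1 and −0.41 without mutant replicate 2. Pck1, a gluconeogenic enzyme, was at 3251 and 2524 CPM in wild type and at 2612 and 2893 CPM in mutant liver, with groups that overlapped. Pdk4, which rises in fasting, was at 15.8 and 13.8 against 11.8 and 6.67 CPM, with log2 fold changes of −1.15 without mutant replicate 1 and −0.33 without mutant replicate 2. Of 16 clock genes, 12 were above and 4 below 0 on the log2 scale (median 0.16). An unadjusted edgeR p below 0.05 was reached by 3 that were higher and 1 that was lower, against 3.97% and 2.22% of all genes. Groups lay apart in 7 that were higher and 1 that was lower, against 17% of all genes in each direction. Past the edgeR threshold 0 rose and 1 fell, against 0.28% and 0.0614% of all genes. The gene that fell was the repressor Nr1d1 (REV-ERB alpha). It was at 56.9 and 44.9 CPM in wild type and at 27.6 and 28.7 CPM in mutant liver, lower by a log2 fold change of −0.86 (SE 0.11) at an edgeR adjusted p of 0.0109. It did not pass without wild type replicate 1 (−0.67, edgeR adjusted p = 0.141), mutant replicate 1 (0.183) or mutant replicate 2 (0.213), and its exons overlap Thra on the opposite strand. Nr1d1 also did not pass in limma-voom (adjusted p = 0.0640) or with no robust estimation (edgeR adjusted p = 0.0586). Tef and Clock had log2 fold changes of 0.17 and 0.09, Nr1d2 of −0.01, Hlf of 0.25 and Ciart of 1.08 (SE 0.30, edgeR adjusted p = 0.273). The part of meals and time of day in the level of Rgs16 was not tested.

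Cells other than hepatocytes can also hold Rgs16. Lymphocyte markers summed to 10.7 and 12.9 CPM in wild type and to 18.5 and 15.4 CPM in mutant libraries, sinusoidal endothelial markers to 276 and 289 against 278 and 275 CPM, and stellate cell markers to 290.4 and 330.2 against 317 and 300.3 CPM. The Kupffer cell and macrophage markers given above summed to 330.1 and 349.7 CPM in wild type and to 505 and 577 CPM in mutant libraries. Of the 11 lymphocyte markers, 1 passed the threshold, against 0.341% of all genes. This was the pan-leukocyte gene Ptprc, at 6.55 and 6.05 against 11.4 and 10.1 CPM. Without Ptprc the lymphocyte markers summed to 4.16 and 6.88 CPM in wild type and to 7.11 and 5.27 CPM in mutant libraries, so the groups overlapped (a sum added after seeing the data). Of the 9 pancreas markers, 4 were at 0 reads in the 4 libraries (Cpa1, Prss2, Gcg and Ins2). The elastase gene Cela1 from the same list was at 18.3 to 22.8 CPM and Cela2a had 6 to 38 reads. The part of cell composition in the level of Rgs16 was not tested.

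Across the 4 libraries, the genes whose pattern was nearest to that of Rgs16 were Xlr3b, Mesp2, Adam32, Chst11 and Ighv9-3. Nearness was the Euclidean distance between centred log2 CPM values over 4 libraries, computed for 13237 genes with an established symbol, and it was 0.75 to 0.88 for these 5. Mesp2, Adam32, Chst11 and Ighv9-3 were low, reaching at most 0.277 CPM (Ighv9-3, wild type replicate 2). Xlr3b, an X-linked gene with close paralogs and therefore uncertain, was at 0.941 and 1.83 CPM in wild type and at 0.116 and 0.167 CPM in mutant liver. Nearest to Mlxipl, at distances of 0.03 to 0.04, were Ap3m1-ps, Trp53, Wwox, Vasn and Pkhd1. Trp53, the p53 tumour suppressor, was at 19.1 and 19.5 CPM in wild type and at 14.8 and 19.04 CPM in mutant liver, low in mutant replicate 1 as Mlxipl was.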

How the data were processed

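Poly(A) RNA of mouse liver was sequenced in 4 libraries, and each deposited file holds the whole-number counts of 1 library by Ensembl gene identifier, with no scaling or pooling. TopHat2 2.1.1 and HTSeq 0.6.0, with mm10, are the names listed for these counts, per the submitters' processing notes. The strand setting, like the counting mode and the gene models, is not given in the sources used here. Symbols were found for 35449 of 37315 identifiers, and coordinates, exon lengths and exon overlaps come from GENCODE M21 (GRCm38).

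The test was edgeR 4.0.16 (R 4.3.3) on the counts as deposited, with filterByExpr at a minimum count of 10, TMM scaling, glmQLFit with robust estimation and glmQLFTest, and the group as the only term. P-values were adjusted by Benjamini-Hochberg over 14657 genes, with a threshold of 0.05. SEs were derived by dividing the size of each log2 fold change by the square root of F. Libraries differed by more than sampling noise in every pair (chi-square per gene of 61.7 to 106). By this measure wild type replicate 1 was nearer to mutant replicates 1 and 2 (62.5 and 64.3) than to wild type replicate 2 (74.0). Wild type replicate 2 was at 106 from each mutant library. Alternatives were RLE and upper-quartile scaling, other filters, DESeq2 1.42.0, limma-voom (limma 3.58.1), a block on the replicate number, no robust estimation, and each library left out, with a lone library assumed to vary like the other group. On simulated counts for this comparison (14657 genes), 72.4% of genes changed 2-fold and 43.2% of those changed 1.5-fold were recovered, with 5.09% of calls false. The simulated spread followed the trend over expression level, with no spread particular to a gene and no difference shared by genes of a library. Recovery and false calls in the real counts can therefore differ from these values.

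The members and lists were chosen with earlier results of these data known. Named genes are the members and Foxo1, and in each list those past the threshold, up to 3 of highest mean CPM and up to 2 of smallest p among the rest, plus 5 nearest in pattern to Rgs16 and to Mlxipl. Mlx, Mlxip, albumin and Ptprc were chosen after their values were seen. Some genes that this rule names are not reported here.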

Additional observations from a re-analysis of the deposited data

How the results depend on the processing

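With 2 libraries in each group, leaving out any of them moved the calls. Of all genes tested, 50 passed in edgeR, against 258 with no filter beyond a count above 0, 24 with a filter at 1 CPM, 8 with no robust estimation, 112 in DESeq2, 7 in limma-voom and 3 to 17 with a library left out. Of the members 1 passed, against 2 with no filter and in DESeq2 (Rgs16 and Pklr) and 0 to 1 with a library left out. Of the list genes 1 passed, against 8 with no filter, 0 with no robust estimation, 2 in DESeq2, 0 in limma-voom and 0 to 2 with a library left out. With the replicate number as a block 111 genes, 2 members (Rgs16 and Pklr) and 4 list genes (Me1, Arrdc3, Pdk4 and Nr1d1) passed. The labels do not say whether same-numbered libraries form pairs. Over all tested genes, deviations of same-numbered libraries correlated at −0.0072, a single value that cannot show whether some genes share a pairing. The log2 fold change crossed 0 for Mlxip with no filter (0.0039) and for Ppp2ca with no filter (0.0059) and at 1 CPM (0.0013). With a library left out it spanned 0 for Foxo1 (−0.56 to 0.11), Gapdh (−0.12 to 0.0152), Gckr (−0.15 to 0.0069), Grk2 (−0.00901 to 0.0358), H6pd (−0.19 to 0.14), Insig1 (−0.0747 to 0.37), Mlxip (−0.16 to 0.14), Nr1d2 (−0.110 to 0.0766), Ogt (−0.0900 to 0.0543), Pck1 (−0.24 to 0.13), Ppp2ca (−0.0620 to 0.0604), Rxra (−0.25 to 0.14) and Sord (−0.0696 to 0.0133). The causes were not tested.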
